A study of Mus musculus with 12 samples.

Results

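The receptors with which phagocytes take up modified lipoproteins and dying cells were followed in epididymal white adipose tissue (eWAT) of mice on 4 diets. The 9 genes were matched by symbol, and the set was chosen with earlier results of these data known. Of these, *Msr1*, *Stab1*, *Stab2*, *Scarb1* and *Colec12* encode scavenger receptors, and *Mertk*, *Axl*, *Gas6* and *Timd4* serve the uptake of apoptotic cells. They were 9 of the 23133 genes in the table, and 8 of them were among the 12814 genes tested. *Timd4* stayed below the filter of 1 FPKM in at least 3 libraries. All are protein-coding genes, and the 4 that the results turn on lie, on the minus strand of GRCm38, at chr8:39581685-39642673 (*Msr1*), chr14:31139013-31168641 (*Stab1*), chr10:86841198-87008025 (*Stab2*) and chr7:25757273-25788705 (*Axl*).

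All animals were male C57BL/6J mice that entered the diets at 5 weeks of age, stayed on them for 16 weeks and were 21 weeks old when eWAT was taken. The ND group received a normal diet and the HFD group a high-fat diet. The CLE group received the same high-fat diet with an ethanol extract of chrysanthemum leaf at 1.5% of its weight, and the LU group the high-fat diet with luteolin, a plant flavone, at 0.003% of its weight. Each group was represented by 3 mice (ND mice 2, 3 and 4, HFD mice 12, 15 and 18, CLE mice 2, 4 and 11, LU mice 2, 3 and 8), giving 12 libraries of whole tissue, and the study asked how either supplement acts on diet-induced obesity. The paper calls these samples representative of larger groups and does not say how they were picked. Their spread may therefore differ from that of all mice.

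Scavenger receptors bind oxidized lipoproteins, glycated proteins and other spent molecules and carry them into the cell, where they are digested. Dying cells are recognized through phosphatidylserine on their surface, either directly by receptors such as TIM-4 (*Timd4*) or through bridging proteins such as GAS6, which binds phosphatidylserine at one end and the receptor tyrosine kinases AXL, MERTK and TYRO3 at the other. In obese adipose tissue macrophages gather around dying adipocytes and take up their remains. Several of these receptors are also made outside macrophages: the stabilins by sinusoidal and lymphatic endothelium, *Scarb1* by adipocytes and steroid-producing cells, and *Axl* and *Gas6* by fibroblasts and vessel wall cells.

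Values are in FPKM, which are per length of transcript, so that levels can be compared between genes. A change is the difference of log2(FPKM + 1) with its standard error (SE), and is counted as called when the Benjamini-Hochberg adjusted p of limma over all tested genes is under 0.05 and the fold change on that scale over 1.5. The number of reads behind a value is unknown, since FPKM carry no depth. Libraries of one group correlated across genes with r from 0.978 to 0.991. A letter R stands in the labels of 4 libraries (ND 3, ND 4, CLE 4 and LU 2) and of no HFD library, and its meaning is not given in the sources used here. The headings of their FPKM columns also share a string of digits that the other used columns lack, which is not explained either. The 4 called members kept their call without the 4 libraries marked R in CLE against HFD, and in LU against HFD *Stab2* lost it (log2 change -0.84). For HFD against ND the same fit holds ND mouse 2 as the only ND library. It therefore cannot show whether those calls depend on the marked libraries.

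The adipose identity of the samples and the cells in them bear on every value below. All 10 adipocyte markers were measured, and their summed level was between 32784 and 35127 FPKM in ND, 16911 and 19025 in HFD, 26057 and 28816 in CLE, and 24586 and 29828 in LU. Of these 10, 7 were called lower and 1 higher in HFD than in ND. Much of the adipocyte sum was *Fabp4*, with a mean of 19732 FPKM in ND and 10999 in HFD. The 10 core macrophage markers, among them *Adgre1* and *Csf1r*, summed to 354 to 540 FPKM in ND, 2618 to 3005 in HFD, 634 to 972 in CLE and 1028 to 1178 in LU. All 10 of these were called higher in HFD than in ND, and lower in CLE and in LU than in HFD. Much of the macrophage sum was *Lyz2*, with a mean of 289 FPKM in ND and 1667 in HFD. Of the 10 markers of blood vessel endothelium, 4 were called lower and 0 higher in HFD than in ND, with sums of 551 to 823 FPKM in ND and 358 to 550 in HFD, with 600 to 883 in CLE and 714 to 798 in LU. Of the 8 fibroblast markers, 4 were called higher and 0 lower in HFD than in ND, and they summed to 858 to 1015 FPKM in ND, 1637 to 1680 in HFD, 803 to 950 in CLE and 942 to 1134 in LU. In whole tissue, more cells of a type and more RNA per cell cannot be told apart, and the part that these cell types have in the members' values was not tested.

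The other lists are given by their sums. Markers of resident macrophages, 9 of 10 found, summed to 874 to 1075 FPKM in ND, 1623 to 1763 in HFD, 985 to 1224 in CLE and 1220 to 1305 in LU, and 4 were called higher in HFD than in ND. Most of these sums was *Selenop*, with a mean of 836 FPKM in ND and 1400 in HFD. *Lyve1*, *F13a1*, *Cd163*, *Cbr2* and *Cd209f* were not called in HFD against ND (0.01, 0.67, 0.24, 0.26 and -0.12). Lymphatic endothelium markers gave 22 to 34.7 FPKM in ND, 21.7 to 29.5 in HFD, 18.2 to 32.8 in CLE and 20.6 to 37.9 in LU. Mesothelium markers were lower in HFD, at 2.34 to 7.68 FPKM, than in ND, at 12 to 63.8, with 7.71 to 12.7 in CLE and 13.1 to 17.8 in LU, and 5 of 7 were called lower in HFD than in ND. The B cell list, in which 2 of 7 genes passed the filter, gave 91.6 to 166 FPKM in ND, 218 to 270 in HFD, 123 to 207 in CLE and 200 to 227 in LU. Liver genes stayed between 2.83 and 41.4 FPKM in sum, and skeletal muscle genes at or under 16.3. Of the epididymis genes *Lcn5*, *Spint4*, *Defb20* and *Rnase9* were listed at 0 in every library, and of the testis genes *Insl3*, while the sums of these lists did not exceed 5.46 and 3.91 FPKM.

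Of the 8 tested members, 4 rose in HFD relative to ND: the scavenger receptors *Msr1*, *Stab1* and *Stab2*, and the apoptotic cell receptor *Axl*. The same 4 were lower in CLE and in LU than in HFD. *Scarb1*, *Colec12*, *Mertk* and *Gas6* were called in none of these comparisons. Over all tested genes, 14.9% were called higher in HFD than in ND, 10.2% lower in CLE than in HFD and 7.68% lower in LU than in HFD. The median change of the members was 0.68 in HFD against ND, -0.54 in CLE against HFD and -0.51 in LU against HFD on the log2 scale, beside -0.02, 0.01 and 0.03 for all tested genes.

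**Figure D1:**
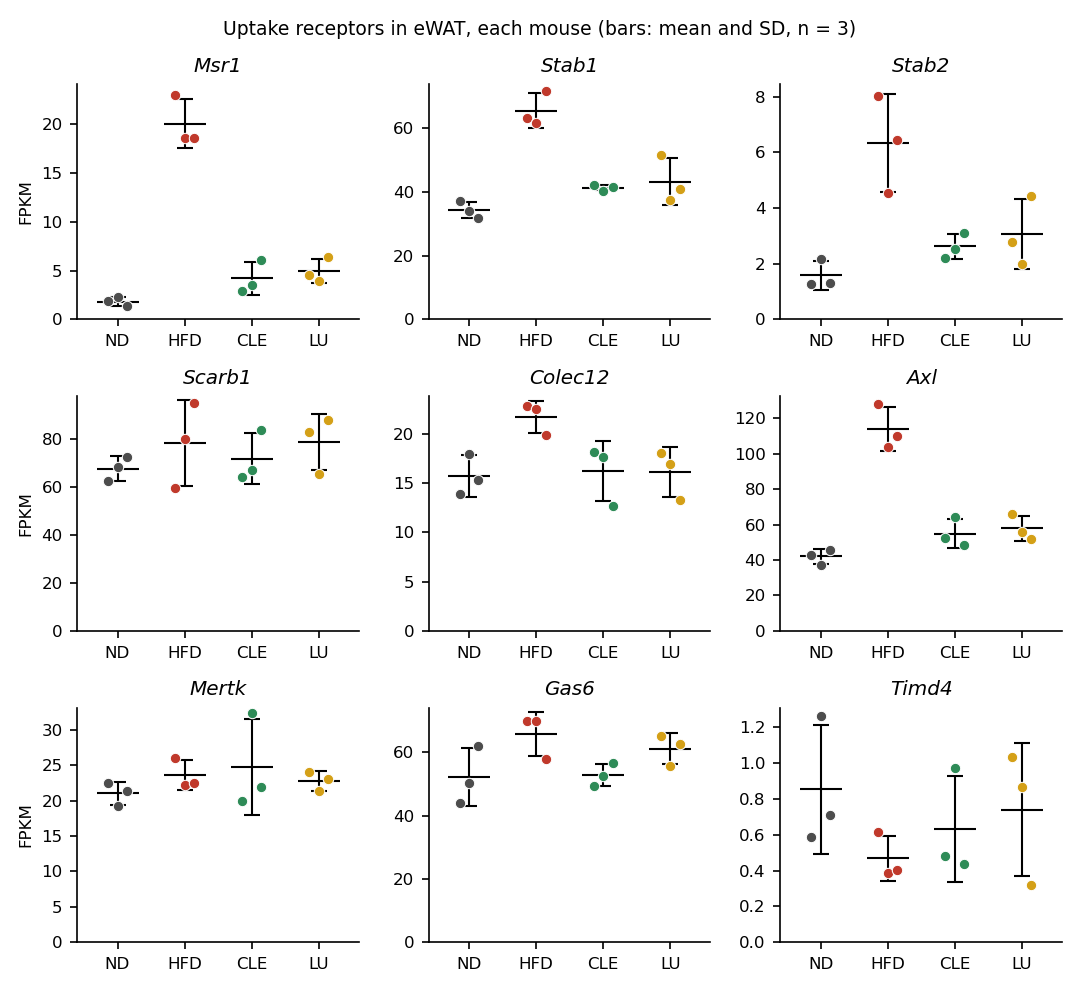
FPKM of the 9 members (vertical axes, each starting at 0) in every mouse of the ND, HFD, CLE and LU groups, with the mean and SD of 3 mice as horizontal bars. *Msr1*, *Stab1*, *Stab2* and *Axl* were highest in the 3 HFD mice, while *Scarb1*, *Mertk* and *Timd4* overlapped among all 4 groups.

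*Msr1* encodes the class A scavenger receptor of macrophages, which binds oxidized and acetylated low-density lipoprotein. It was at 1.85, 2.25 and 1.4 FPKM in the ND mice, at 23, 18.6 and 18.6 in the HFD mice, at 2.95, 3.52 and 6.12 in the CLE mice and at 4.57, 3.92 and 6.37 in the LU mice. Every HFD mouse was thus above every other mouse, and every CLE and LU mouse was above every ND mouse. The mean was 11-fold higher in HFD (20.1 ± 2.56 FPKM, SD, n = 3) than in ND (1.83 ± 0.424), with a log2 change of 2.90 (SE 0.21, limma adjusted p = 1.53e-06).

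In CLE the mean of *Msr1* was 4.78-fold below that of HFD (log2 change -2.06, SE 0.21, limma adjusted p = 5.08e-05), and in LU 4.05-fold below it (-1.84, SE 0.21, adjusted p = 0.000227). Both supplement groups stayed above ND. *Msr1* was the single member called against ND, at 2.29-fold in CLE (log2 change 0.84, limma adjusted p = 0.0467) and 2.7-fold in LU (1.06, adjusted p = 0.00923). The change in LU was 1.08 and not called without the libraries marked R, where ND mouse 2 is the only ND library. Over all tested genes 2.11% were called higher in CLE than in ND and 4.98% in LU than in ND. The call in CLE stood close to the threshold: it held in 3 of the 12 fits that left out 1 library, and without CLE mouse 11, the mouse of its group with the highest *Msr1*, the change was 0.59 (adjusted p = 0.125). It was also lost without ND mouse 2, 3 or 4 (0.85, 0.94 and 0.72), without HFD mouse 12, 15 or 18 (0.84 each), without CLE mouse 4 (0.92) and without LU mouse 2 (0.84).

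*Stab1*, which encodes stabilin-1, a large receptor of alternatively activated macrophages and sinusoidal endothelium that clears modified proteins, was the most abundant of the 3 scavenger receptors that rose. It measured 37.1, 34.1 and 31.9 FPKM in ND, 63.1, 61.7 and 71.7 in HFD, 42.1, 40.4 and 41.4 in CLE, and 51.5, 37.5 and 40.8 in LU. The HFD mice lay above all others, and the CLE and LU mice lay between the groups of the unsupplemented diets, also without touching ND. Its rise in HFD was 1.91-fold (log2 change 0.91, SE 0.11, limma adjusted p = 6.10e-05). The mean was 1.59-fold lower in CLE than in HFD (log2 change -0.65, SE 0.11, adjusted p = 0.0013) and 1.51-fold lower in LU (-0.60, SE 0.11, adjusted p = 0.00333). These falls were near the fold limit. Without HFD mouse 18 they were -0.58 and -0.53 and fell short of 1.5-fold, and the fall in LU also did so without LU mouse 3 (-0.50) or LU mouse 8 (-0.56), all with adjusted p from 0.00777 to 0.0171. The most abundant *Stab1* transcript alone gave larger changes, all called: 1.43 in HFD against ND, -1.16 in CLE against HFD and -0.96 in LU against HFD.

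*Stab2* encodes stabilin-2, the hyaluronan and phosphatidylserine receptor of liver, spleen and lymph node sinuses, and was low in this tissue. Its values were 1.26, 2.18 and 1.3 FPKM in ND, 8.04, 4.55 and 6.43 in HFD, 2.22, 2.53 and 3.11 in CLE, and 2.77, 1.98 and 4.44 in LU. The HFD mice were again the highest, although LU mouse 8 came close to HFD mouse 15, and LU overlapped ND. *Stab2* was 4.01-fold higher in HFD than in ND (log2 change 1.50, SE 0.23, limma adjusted p = 0.00026). It was 2.42-fold lower in CLE than in HFD (-1.0, SE 0.23, adjusted p = 0.00633) and 2.07-fold lower in LU (-0.87, SE 0.23, adjusted p = 0.0167).

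The fall of *Stab2* in LU was lost in 4 of the 12 fits that left out 1 library: without HFD mouse 12 (-0.71), HFD mouse 18 (-0.85), LU mouse 2 (-0.84) or LU mouse 3 (-0.67). In LU against ND it was not called (0.63, limma adjusted p = 0.0992), but without LU mouse 3 it was (0.83, adjusted p = 0.044). Part of the *Stab2* value comes from a short transcript that is not in the annotation used here, ENSMUST00000159118. It held on average 4.43% of *Stab2* in ND, 43.9% in HFD, 17.8% in CLE and 36.9% in LU. Without transcripts outside this annotation, the change in HFD against ND was 0.93 (adjusted p = 0.000146) and still called, and that in CLE against HFD was -0.44 (adjusted p = 0.0248) and under 1.5-fold. The most abundant *Stab2* transcript was an assembled one that covers just the 3′ part of the gene, chr10:86841198-86879939. It alone gave 0.92 in HFD against ND, still called, and -0.45 in CLE against HFD (limma adjusted p = 0.0385), under 1.5-fold. The annotated full transcript (ENSMUST00000035288) was near 0, at 0.14, 0.021 and 0.13 FPKM in ND and 0.22, 0.26 and 0.13 in HFD, with overlap. The *Stab2* changes thus rest mainly on partial transcripts. With only the transcripts that carry a plain Ensembl identifier or the class code =, the change in LU against HFD was -0.86 and no longer called (limma adjusted p = 0.0967).

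*Scarb1* encodes SR-BI, the receptor that exchanges cholesterol with high-density lipoprotein, and was the member with the highest mean over all libraries. It stood at 62.2, 68.2 and 72.3 FPKM in ND, 59.4, 79.8 and 95 in HFD, 64.1, 67.1 and 83.7 in CLE, and 82.9, 65.5 and 87.8 in LU. The 4 groups overlapped, and the HFD mice alone spanned the lowest and the highest of the 12 values. The difference of HFD from ND was 0.18 (95% interval -0.19 to 0.55), that of CLE from HFD -0.11 (-0.48 to 0.27) and that of LU from HFD 0.03 (-0.35 to 0.40), all with a limma adjusted p of at least 0.397.

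*Colec12* encodes a collectin with a membrane anchor, found on vessel walls, that binds oxidized lipoprotein and microbial sugars. It was at 13.9, 18 and 15.3 FPKM in ND, 22.8, 22.5 and 19.9 in HFD, 18.2, 17.7 and 12.7 in CLE, and 18.1, 17 and 13.3 in LU. The lowest HFD mouse was above the highest mouse of each other group, and the other groups overlapped. All *Colec12* rows carry the identifier ENSMUST00000040069, alone or as an assembled variant. The annotation used here lists this transcript under nonsense-mediated decay and not as protein-coding. The difference of HFD from ND had an adjusted p under the threshold but a fold under 1.5 (log2 change 0.45, SE 0.15, limma adjusted p = 0.0283). When the letter R entered the fit as a covariate, this change was 0.60 and was called. That was the highest value over the alternatives, and the lowest was 0.20. The annotated transcript alone (ENSMUST00000040069) overlapped between the groups, at 9.49, 12.26 and 12.65 FPKM in ND and 12.82, 15.05 and 11.98 in HFD. The separation of the summed values thus depends on assembled rows. CLE and LU each differed from HFD by -0.42 (SE 0.15), with adjusted p of 0.0538 and 0.0618.

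*Gas6* encodes the ligand that links dying cells to AXL and MERTK. It stood at 44, 50.5 and 62 FPKM in ND, 69.8, 69.8 and 57.9 in HFD, 49.4, 52.6 and 56.6 in CLE, and 65.2, 55.7 and 62.8 in LU. HFD and ND overlapped, because HFD mouse 18 lay below ND mouse 4, and so did HFD and LU, while the CLE mice lay just below the HFD mice. The change from ND to HFD was 0.34 (SE 0.13, limma adjusted p = 0.0435), under 1.5-fold. CLE differed from HFD by -0.31 (SE 0.13, adjusted p = 0.0839) and LU by -0.10 (SE 0.13, adjusted p = 0.593).

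*Axl*, whose product is the member of this kinase family raised in many tissues under inflammation, was the most abundant member in HFD. It measured 43, 37.4 and 45.6 FPKM in ND, 128, 104 and 110 in HFD, 52.5, 64.1 and 48.2 in CLE, and 65.7, 56 and 52.1 in LU. No HFD mouse came near another group, and the CLE and LU mice overlapped each other but not ND. The mean was 2.71-fold higher in HFD than in ND (log2 change 1.42, SE 0.13, limma adjusted p = 7.00e-06). In CLE it was 2.08-fold lower than in HFD (-1.04, SE 0.13, adjusted p = 0.000147) and in LU 1.97-fold lower (-0.97, SE 0.13, adjusted p = 0.000482). These 3 calls held in each of the 12 fits that left out 1 library and in each of the 14 other settings. In the setting without the libraries marked R, HFD against ND rested on ND mouse 2 alone. Against ND, *Axl* differed by 0.37 in CLE (adjusted p = 0.117) and by 0.45 in LU (adjusted p = 0.0444, under 1.5-fold).

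*Mertk*, the kinase through which mature macrophages engulf apoptotic cells, stood at 22.5, 19.3 and 21.3 FPKM in ND, 26, 22.2 and 22.5 in HFD, 19.9, 32.4 and 21.9 in CLE, and 24, 21.3 and 23 in LU. The groups overlapped, and CLE mouse 4 was the highest of all. HFD differed from ND by 0.15 (95% interval -0.17 to 0.48, limma adjusted p = 0.412), CLE from HFD by 0.04 (-0.29 to 0.37) and LU from HFD by -0.05 (-0.38 to 0.28). Without CLE mouse 4 the difference of CLE from HFD was -0.16.

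The ratio of *Axl* to *Mertk* within a library was therefore set apart in HFD. It was 1.91, 1.94 and 2.14 in the ND mice, 4.93, 4.68 and 4.89 in the HFD mice, 2.64, 1.98 and 2.2 in the CLE mice, and 2.74, 2.62 and 2.27 in the LU mice. The ratio of *Axl* to its ligand *Gas6* was 0.819 ± 0.138 in ND, 1.74 ± 0.222 in HFD, 1.04 ± 0.184 in CLE and 0.948 ± 0.102 in LU (SD, n = 3 each). *Msr1* over *Stab1* likewise rose from 0.0533 ± 0.0114 in ND to 0.309 ± 0.0533 in HFD, with 0.102 ± 0.0408 in CLE and 0.117 ± 0.0352 in LU. These ratios describe the libraries and were not tested.

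*Timd4* encodes TIM-4, a phosphatidylserine receptor of long-lived resident macrophages. It was at 0.586, 1.26 and 0.707 FPKM in ND, 0.613, 0.387 and 0.402 in HFD, 0.483, 0.972 and 0.438 in CLE, and 1.03, 0.867 and 0.321 in LU. It reached 1 FPKM in 2 of the 12 libraries and overlapped among all groups. The difference of HFD from ND was -0.32 on the log2 scale, with an exact two-sided permutation p of 0.2, where 0.1 is the smallest that 3 mice against 3 allow.

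**Figure D2:**
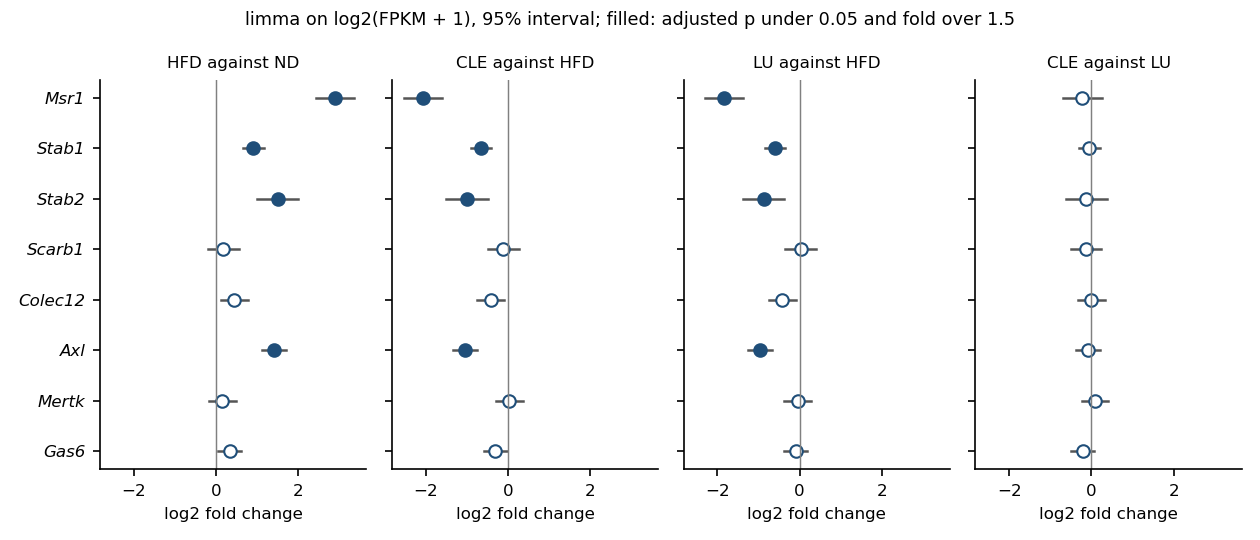
Change of the 8 tested members (log2 fold change on the log2(FPKM + 1) scale, horizontal axes shared) in the comparisons of HFD with ND, of CLE and LU with HFD, and of CLE with LU, with the 95% interval of limma as a line. Filled points, called genes, are *Msr1*, *Stab1*, *Stab2* and *Axl* in the first 3 panels, and no member is filled in CLE against LU.

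No mouse of HFD overlapped ND for 5 of the 8 tested members, which adds *Colec12* to the 4 called ones, against 30.2% of all tested genes lying wholly above. For CLE below HFD the count was 6 of 8, with *Gas6*, against 26.2% of all genes, and for LU below HFD 5 of 8 against 22.1%. The exact permutation p was 0.1 for each of these, the smallest possible. The comparisons with HFD all use the same 3 HFD mice, so that their values are not independent of each other.

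No member was called between the extract and luteolin. In CLE against LU, 0.0078% of all tested genes were called, and 0 of the 8 members, none of which had an unadjusted limma p under 0.05, beside 667 of the 12814 genes. The differences of CLE from LU were -0.22 for *Msr1* (95% interval -0.69 to 0.25), -0.05 for *Stab1* (-0.30 to 0.20), -0.13 for *Stab2* (-0.63 to 0.38) and -0.08 for *Axl* (-0.37 to 0.21). For the other members they were -0.13 for *Scarb1* (-0.51 to 0.24), 0.00 for *Colec12* (-0.33 to 0.33), 0.09 for *Mertk* (-0.24 to 0.41) and -0.21 for *Gas6* (-0.49 to 0.07). The intervals leave room for differences in either direction, and CLE and LU differ in dose as well as in substance.

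The members differed in how far they followed the macrophage markers. The mean log2(FPKM + 1) of the 10 core markers changed by 2.85 in HFD against ND, by -1.97 in CLE against HFD and by -1.51 in LU against HFD. *Msr1* changed by 2.90, -2.06 and -1.84 in the same comparisons. Relative to these markers it stood at -2.52 ± 0.08 in HFD, where the ND mice overlapped it, and at -2.61 ± 0.10 in CLE (SD, n = 3). In LU it stood lower, at -2.85 ± 0.15, with no overlap with HFD. The 7 other tested members rose by less than the markers, and in each of them all 3 HFD mice lay below all 3 ND mice relative to the markers (exact two-sided permutation p = 0.1, the smallest possible). An unchanged gene would do so too, since the markers rose by 2.85 while the median change of all tested genes was -0.02. The share of all tested genes that did so was not counted. For *Axl* the values relative to the markers were 1.454, 0.964 and 1.661 in ND, -0.001, -0.146 and -0.069 in HFD, 1.099, 1.16 and 0.293 in CLE, and 0.729, 0.533 and 0.152 in LU. For *Mertk* they were 0.551, 0.042 and 0.598 in ND and -2.258, -2.322 and -2.31 in HFD.

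**Figure D3:**
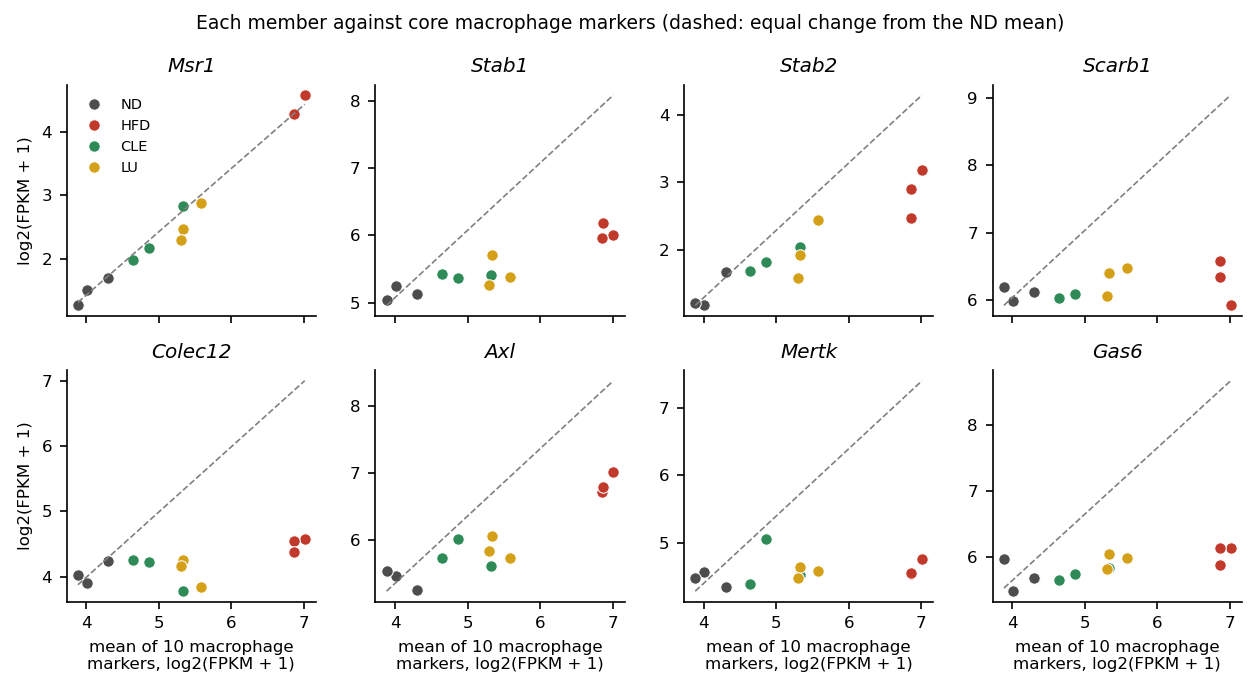
Level of each tested member (vertical axes, log2(FPKM + 1), own range) against the mean of 10 core macrophage markers (horizontal axis, same unit) in the 12 libraries, coloured by diet, with a dashed line for a change equal to that of the markers from the ND mean. On this scale *Msr1* lies along the line, *Axl*, *Stab1* and *Stab2* fall below it in HFD, and *Scarb1*, *Colec12*, *Mertk* and *Gas6* fall farthest below it.

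Profiles were compared across the 12 libraries after centring each gene on its mean. The gene whose profile was nearest to *Msr1* was *Cyth4*, with a root mean square difference of 0.108 on the log2 scale, followed by *Adcy7* at 0.122, beside a spread of 1.09 for *Msr1* itself. *Axl* was nearest to *Enpp1* (0.126) and *Myo5a* (0.138), with a spread of 0.541. *Enpp1* was low (mean 0.446 FPKM in ND and 2.67 in HFD), and its change in HFD against ND ranged from 1.15 to 2.34 over the alternative settings. That of *Axl* ranged from 1.16 to 1.54, and their likeness was not tested on a scale other than log2(FPKM + 1). *Stab1* lay nearest to *Rel* (0.0875) and *Pcyt1a* (0.0901), and *Stab2* to *Tmem104* (0.154) and *Atp6v0a1* (0.16). The remaining members varied little, so that likeness means less: *Colec12* was nearest to *Dnajb14* and *Tnpo1*, *Gas6* to *Exog* and *Pgpep1*, *Mertk* to *Gm7964* and *Xdh*, and *Scarb1* to *Ppp1r3d* and *Dcbld1*.

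*Msr1* is spliced into a long form with a cysteine-rich domain at its end (type I) and a shorter form without it (type II). In the annotation the longer transcript (ENSMUST00000026021) has 1374 coding bases in 10 coding exons, and the shorter (ENSMUST00000170091) has 1062 in 9. The short form held on average 55.1% of *Msr1* in ND, 58.8% in HFD, 55.9% in CLE and 63.8% in LU. The long form was listed at or near 0 in the ND mice, its highest value there being 0.00963 FPKM, at 7.18, 4.64 and 3.7 FPKM in HFD, at 0.376, 0.461 and 0.259 in CLE, and in LU at 0.152 in mouse 2, near 0 in mouse 3 and 1.6 in mouse 8. An assembled transcript with the same intron chain as the long form was listed besides at 0.0895, 0.753 and 0.214 FPKM in ND and 2.45, 1.72 and 1.44 in HFD, so that the long form was not absent in ND. How such reads are divided between near-identical rows is an estimate, and these shares were not tested.

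*Axl* has transcripts with and without a short in-frame exon. It is coding exon 10 of the 20 coding exons of the main transcript (ENSMUST00000002677), 27 bases at chr7:25773099-25773125 on the minus strand of GRCm38, and is absent from the next most abundant transcript (ENSMUST00000085948). The exon is shown because it is the coding sequence in which the main forms differ. It is read 5′ to 3′ along the gene from the transcript sequences of GENCODE M21.
Axl coding exon 10: ggcaaggacagccactccaccatctgg
The form with the exon was at 28.4, 29.5 and 32.1 FPKM in ND and 73, 64.1 and 68.4 in HFD, and the form without it at 9.46, 5.07 and 7.09 in ND and 28.8, 20.5 and 20.5 in HFD. Both forms rose in all HFD mice, and the form without the exon held 17% of *Axl* in ND, 20.3% in HFD, 20.3% in CLE and 18.2% in LU. A transcript with a retained intron (ENSMUST00000137383) held 0.86% in ND and 7.23% in HFD.

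The remaining members were also composed of several rows. In *Mertk*, an assembled transcript that ends at position 128772840 of chromosome 2, before the annotated end at 128802894, held 43.2% in ND, 42.5% in HFD, 41.1% in CLE and 39.8% in LU. The annotated full transcript stood at 7.11, 6.76 and 6.59 FPKM in ND and at 13.1, 8.7 and 8.88 in HFD, and did not overlap between these groups although the sum did. The processed transcript ENSMUST00000140221 of *Mertk* went the other way, also without overlap, with 2.41, 2.36 and 2.38 FPKM in ND and 1.17, 1.01 and 1.60 in HFD. The other *Mertk* rows overlapped between ND and HFD. How reads are divided between rows is an estimate, a shift between them was not tested, and the share of all transcript rows without overlap was not counted. In *Stab1* the full transcript held 41.5% in ND and 61.6% in HFD, and the retained-intron transcript ENSMUST00000161129 held 14.7% in ND and 1.95% in HFD. *Gas6* rested on 1 transcript, with 89.3% to 91.6% in the 4 groups. *Scarb1* ends in either of 2 alternative last coding exons, of 126 bases in ENSMUST00000086075 and 117 in ENSMUST00000111390, and these transcripts held 41.7% and 21.3% in ND and 37% and 16.5% in HFD.

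**Figure D4:**
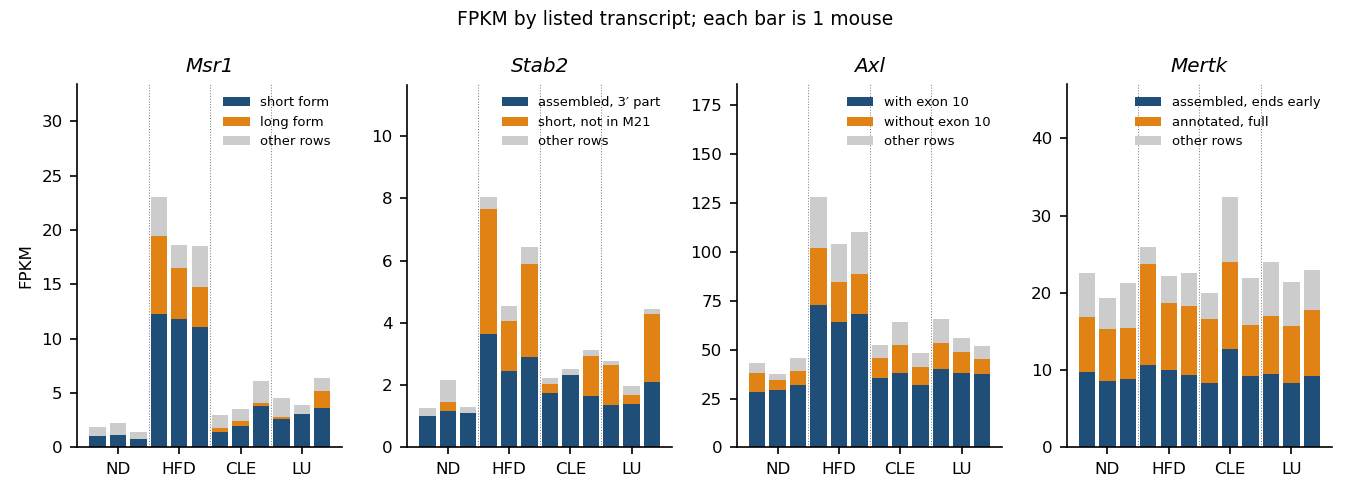
FPKM of *Msr1*, *Stab2*, *Axl* and *Mertk* in each mouse (bars, from 0), divided into the 2 rows with the highest mean and all other rows of the gene. The long *Msr1* form is visible mainly in the HFD mice, the short *Stab2* transcript varies from mouse to mouse and is highest in HFD mouse 12, both *Axl* forms are highest in HFD, and the *Mertk* bars overlap among the groups.

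The start sites of *Axl* and *Mertk*, sister receptors of which the first rose and the second was not called, are shown side by side from the RefSeq promoter table (GRCm38.p6), 250 bases before to 50 after the start, 5′ to 3′ along the gene. Of the 9 members, 6 had an entry. Capitals mark matches on either strand to a GC box (GGGCGG) or to a PU.1-like motif (GAGGAAG). The other motifs searched on both strands were AP-1 (TGACTCA) and an E-box (CACGTG). The *Axl* window lies at chr7:25788684-25788983 on the minus strand and the *Mertk* window at chr2:128698665-128698964 on the plus strand.
Axl: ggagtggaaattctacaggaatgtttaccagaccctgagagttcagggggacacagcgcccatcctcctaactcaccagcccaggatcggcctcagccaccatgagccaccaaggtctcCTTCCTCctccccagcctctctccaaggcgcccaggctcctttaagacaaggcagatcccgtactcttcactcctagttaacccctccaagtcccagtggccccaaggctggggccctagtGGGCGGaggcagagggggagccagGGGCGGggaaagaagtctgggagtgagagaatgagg
Mertk: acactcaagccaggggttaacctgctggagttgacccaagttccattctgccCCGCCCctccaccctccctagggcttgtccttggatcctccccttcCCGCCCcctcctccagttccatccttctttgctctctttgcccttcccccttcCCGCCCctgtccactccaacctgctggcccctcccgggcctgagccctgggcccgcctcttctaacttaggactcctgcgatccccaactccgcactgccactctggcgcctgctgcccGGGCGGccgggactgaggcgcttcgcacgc
The *Axl* window held 1 PU.1-like match, 131 bases before the start (-131), and 2 GC boxes, which begin at -10 and 14. *Mertk* held 4 GC boxes, at -198, -152, -99 and 20, and no match to the other motifs. *Gas6* also held 4 GC boxes, while *Stab1*, *Stab2* and *Timd4* held none of the 4 motifs. Among all 32851 promoters of this length, 35.7% held a GC box, 13.6% the PU.1-like motif, 5.2% the AP-1 motif and 7.15% the E-box. A match describes letters and not a bound site.

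Other genes of the pathway gave the surroundings of the members. These lists were drawn up with earlier results of the same libraries known, so their direction is not independent evidence. Of 15 tested scavenger receptors beside the members, 7 were called higher in HFD than in ND and 0 lower, 6 were called lower in CLE than in HFD and 4 lower in LU than in HFD. The median change of the list was 0.41, -0.27 and -0.33. Among the largest rises in HFD were those of *Cd68*, the lysosomal macrophage scavenger protein (4.08), the mannose receptor *Mrc1* (1.37) and *Cxcl16*, a chemokine that also binds oxidized lipoprotein (1.18). In CLE against HFD they differed by -2.60, -1.07 and -0.87, the last of which was not called when the most abundant transcript replaced the sum over transcripts (-0.74). In LU against HFD, *Cd68*, *Mrc1* and *Lrp1* were called at -2.06, -0.75 and -0.68. *Cd36*, the fatty acid translocase of adipocytes and macrophages, was at 1998 ± 85.5 FPKM in ND and 2121 ± 47.7 in HFD, with a change of 0.09 (limma adjusted p = 0.328).

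Among ligands and receptors for dying cells, 16 of 22 tested genes were called higher in HFD and 0 lower, with a median change of 1.02. In CLE 14 were called lower than in HFD and 1 higher, and in LU 13 lower and 0 higher, with medians of -0.81 and -0.72. The lipid receptor *Trem2* rose most (6.16, from 1.52 ± 0.353 to 180 ± 25.6 FPKM), followed by the phosphatidylserine receptor *Cd300lb* (3.58), *Sirpa*, which receives the CD47 signal against engulfment (2.69), and the complement subunit *C1qb* (2.47). In CLE against HFD these 4 changed by -3.5, -2.36, -2.05 and -1.75, and in LU against HFD by -2.76, -1.89, -1.65 and -1.36. The bridging protein *Mfge8* stood at 250 ± 40.4 FPKM in ND and 884 ± 174 in HFD (change 1.81), and its receptor subunit *Itgav* rose by 0.86, and both were called lower in CLE (-1.21 and -0.84) and in LU (-1.02 and -0.77). The fall of *Mfge8* in LU was lost without HFD mouse 18 (-0.90, adjusted p = 0.0512), LU mouse 3 (-0.87, adjusted p = 0.0552) or the libraries marked R (-0.89, adjusted p = 0.0877).

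*Tyro3*, the sister receptor of *Axl* and *Mertk*, was at 0.629 ± 0.17 FPKM in ND and 1.43 ± 0.115 in HFD, with a change of 0.58 (limma adjusted p = 0.00122) that fell just short of 1.5-fold and passed it without ND mouse 2 (0.61) or 4 (0.65), or HFD mouse 15 (0.60) or 18 (0.61). At this low level the change depended on the pseudocount: with 0.1 FPKM in place of 1 it was 1.10 (limma adjusted p = 0.00107) and called, as it also was after scaling to equal totals or by median ratios (0.59 each). *Pros1*, which encodes protein S, a second ligand of these receptors, rose from 37.9 ± 3.65 to 58.8 ± 2.69 FPKM (change 0.62, adjusted p = 0.000181), a call lost without ND mouse 2 (0.56), after quantile normalization (0.58), with the most abundant transcript alone (0.52) and with plain identifiers and class code = only (0.54). In CLE and LU, *Pros1* was at 53.9 ± 3.48 and 54.7 ± 3.04 FPKM and was not called against HFD (-0.12 and -0.10). *Thbs1*, a bridging protein between dying cells and CD36, was the gene called higher in CLE than in HFD (1.04). That call was lost without HFD mouse 15 (0.92) or 18 (0.88), CLE mouse 2 (0.99), 4 (1.04) or 11 (1.10), or LU mouse 2 (1.04), with no filter on low FPKM (1.04), with the letter R as a covariate (0.95) and without the libraries marked R (1.04). In LU against HFD it was not called at 0.84, but was without ND mouse 4.

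In the list of signals, engulfment and digestion, 9 of 23 tested genes were called higher in HFD than in ND and 1 lower, 7 lower and 1 higher in CLE than in HFD, and 7 lower and 1 higher in LU than in HFD. The median change was 0.39, -0.18 and -0.13. Among the largest rises were those of the nucleotide receptor *P2ry6* (2.49), the mitochondrial carrier *Ucp2* (2.02) and the chemokine receptor *Cx3cr1* (1.41). *Cd68* above is also on the core macrophage list. *Gulp1*, an engulfment adaptor, went the other way in all 3 comparisons: it fell from 20 ± 4.92 to 8.49 ± 0.509 FPKM in HFD (log2 change -1.12), and was higher in CLE (19.1 ± 1.77, change 1.08) and in LU (14.3 ± 0.0851, change 0.69) than in HFD.

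**Figure D5:**
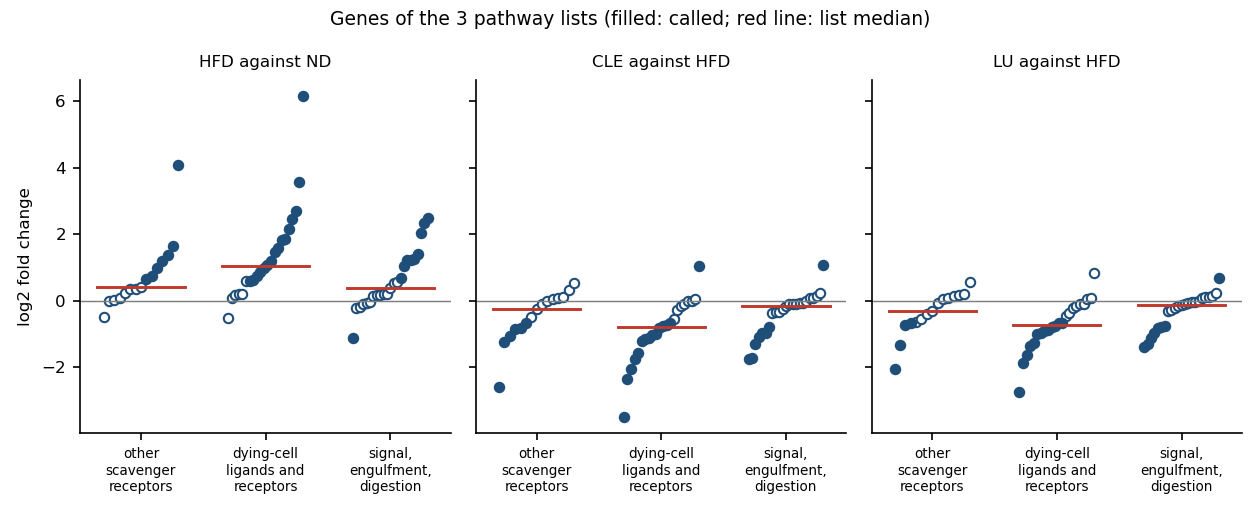
Log2 fold change (vertical axis) of every tested gene of the 3 pathway lists for HFD compared with ND and for CLE and LU compared with HFD, sorted within each list, with called genes filled and the list median as a red line. The list of ligands and receptors has the highest median in HFD against ND, 1.02, and the lowest in CLE against HFD, -0.81.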

How the data were processed

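Total RNA of eWAT was made into mRNA libraries with the Illumina TruSeq kit and sequenced by the authors, whose processing notes name CASAVA 1.8.2, Bowtie2 2.2.3, TopHat2 2.0.12 and Cufflinks 2.2.1. The authors deposited FPKM values for 152210 transcripts, annotated or assembled from the reads. The genome build is not given in the sources used here, and the coordinates match GRCm38. Of 15 FPKM columns, 12 were matched to the labels. The remaining 3 fit no sample given here and were left aside. For ND mouse 4 the heading reads MD4, and this column was assigned by inference, from its number and letter R. The columns of the CLE mice are abbreviated CLL. The deposited marks of genes called between groups hold the authors' own comparisons and were not used. The count-based test of the study was not repeated, since the table holds no counts.

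Rows with an Ensembl transcript, plain or with class code = or j, were summed per gene (142884 rows, 98.2% found in GENCODE M21, the others kept under the deposited gene name, 23133 genes). For the members 94 rows were kept, and 7, from the opposite strand, were left out. limma 3.58.1 (R 4.3.3) was run on log2(FPKM + 1) for the 12814 genes with at least 1 FPKM in at least 3 libraries, all 12 libraries in 1 fit without covariate, and p-values were adjusted over all genes of a contrast. Groups of 3 were also compared by exact two-sided permutation. Alternatives were a pseudocount of 0.1, other filters, 3 scalings, moderation with a trend, fits of just the compared groups, the letter R as a covariate or its libraries left out, other rules for the gene value, the adjusted p alone, a replicate block, and fits that omitted each library singly. The method was tested on simulated data with 200 changed genes. Python 3.11.15 with numpy 2.4.6 and pandas 2.3.3 served for the tables, and matplotlib 3.10.9 drew the plots.

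The members, lists and alternatives were chosen with earlier results of these data known. Named beside the members were the 4 largest rises and falls per list and comparison, *Tyro3*, *Pros1*, *Mfge8*, *Itgav* and *Cd36*, and for each tested member the 2 genes with the nearest profile. The values of 2 of these genes are not reported here. The mice are separate animals by their numbers. Depth is unknown, so no floor in reads is given.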

Additional observations from a re-analysis of the deposited data

How the results depend on the processing

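The calls of *Msr1* and *Axl* in HFD against ND, CLE against HFD and LU against HFD, and those of *Stab1* and *Stab2* in HFD against ND, were kept in every alternative that gave a value. In the alternative without the libraries marked R, HFD against ND rests on ND mouse 2 alone. Over the members, 1181 values kept their direction and side of the threshold, 30 lost the call, 5 gained it and 42 changed sign, all of the last among uncalled differences. For the other named genes these counts were 2716, 20, 21 and 21. *Stab2* fell below the filter on a mean of 5 FPKM and has no value there. The cause of these changes was not tested, except that fewer libraries entered the fits without some of them.

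The number of members called in CLE against ND, 1 in the report, was 0 with no filter, with only the 2 groups compared, with the letter R as a covariate, without the libraries marked R, with the transcript of the highest mean, with plain identifiers and class code = only, and with the replicate block. In LU against ND it was 1, and became 0 without the libraries marked R and with the replicate block, and 2 by the adjusted p alone. The losses against ND without the libraries marked R rest on ND mouse 2 as the only ND library. When libraries were left out in turn, the counts ranged from 2 to 4 in LU against HFD (2 without HFD mouse 18 and 2 without LU mouse 3), from 0 to 1 in CLE against ND and from 1 to 2 in LU against ND (2 without LU mouse 3). The replicate block (ND, CLE and LU libraries with numbers 2, 3 and 4, with 2 residual degrees of freedom) also turned *Scarb1* to -0.09 and *Gas6* to -0.08 in CLE against ND. Deviations of same-numbered mice correlated weakly, with r of -0.102, 0.103, 0.104, 0.187 and -0.00283. They were taken from means of 3 mice, so these values cannot settle whether equal numbers mark a shared block.

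Other changes of sign were as follows. In the fit without the libraries marked R, ND mouse 2 is the only ND library. Without the libraries marked R they were *Stab1* (0.09) and *Mertk* (-0.08) in CLE against LU, *Scarb1* (-0.02) in LU against HFD, *Mertk* in CLE against HFD (-0.16), CLE against ND (-0.11) and LU against ND (-0.02), *Gm7964* in CLE and LU against HFD (-0.09 and -0.06), *Ppp1r3d* in LU against HFD (0.01) and *Thbs1* in HFD against ND (0.02, from -0.54 in the report's fit). With the letter R as a covariate they were *Mertk* and *Gm7964* (both -0.02) in CLE against HFD and *Xdh* in HFD against ND (0.12) and LU against HFD (-0.03). With the transcript of the highest mean they were *Stab2* in CLE against LU (0.16), *Scarb1* (0.03) and *Mertk* (-0.01) in CLE against HFD, and *Colec12* in CLE and LU against ND (-0.20 and -0.07). With plain identifiers and class code = only, *Colec12* gave the same -0.20 and -0.07, *Scarb1* -0.01 in CLE against ND, *Mertk* -0.20 in CLE against HFD, *Cd36* -0.09 in HFD against ND and *Dcbld1* -0.03 in LU against HFD. Without transcripts outside GENCODE M21, an alternative chosen after seeing the data, *Stab2* was 0.17 in CLE against LU. Scaling by median ratios turned *Scarb1* in LU against HFD to -0.01, and quantile normalization *Colec12* in LU against ND to -0.02.

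Leaving out 1 library gave these ranges across 0. In CLE against LU they were -0.15 to 0.08 for *Stab1*, -0.33 to 0.10 for *Stab2*, -0.13 to 0.16 for *Colec12*, -0.12 to 0.22 for *Mertk* and -0.19 to 0.01 for *Axl*. In CLE against HFD they were -0.29 to 0.05 for *Scarb1*, -0.16 to 0.17 for *Mertk*, -0.11 to 0.11 for *Dcbld1*, -0.09 to 0.11 for *Gm7964* and -0.24 to 0.02 for *Ppp1r3d*. In LU against HFD they were -0.15 to 0.18 for *Scarb1*, -0.09 to 0.02 for *Mertk*, -0.04 to 0.16 for *Dcbld1*, -0.06 to 0.11 for *Gm7964*, -0.12 to 0.07 for *Ppp1r3d* and -0.01 to 0.13 for *Xdh*. In CLE against ND they were -0.04 to 0.15 for *Scarb1*, -0.06 to 0.19 for *Colec12*, -0.01 to 0.33 for *Mertk* and -0.08 to 0.16 for *Gas6*, and in LU against ND -0.05 to 0.16 for *Colec12*. For *Tmem104* and *Atp6v0a1*, neighbours of *Stab2*, 1 call each was lost with the transcript of the highest mean (-0.86 in LU and -0.97 in CLE against HFD).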
